A study of Mus musculus with 12 samples.

Results

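The Ms4a family encodes small membrane proteins that cross the lipid bilayer repeatedly and sit in immune cell membranes beside other receptors. Transcript levels of 8 of its genes, Ms4a4a, Ms4a4b, Ms4a4c, Ms4a4d, Ms4a6b, Ms4a6c, Ms4a6d and Ms4a7, were examined in mouse primary microglia. The genes were chosen by symbol, by matching the Ensembl gene identifiers of the expression table, and make up 8 of its 48623 genes. Each symbol matched 1 identifier. The wild-type (WT) cultures came from C57BL/6J mice and the knock-in (KI) cultures from mice of the same background carrying the R47H substitution in the endogenous Trem2 gene, which the study's text describes as homozygous. Both kinds of culture were grown from brains of pups aged 1 to 3 days, and microglia were freed of the astrocyte layer after 19 to 23 days of mixed glial culture. They were then left untreated or given 20 ng/ml interleukin-4 (IL-4), a cytokine that drives alternative activation of macrophages, for 48 h. Each of 3 WT cultures (T13, T33 and T43) and 3 KI cultures (T15, T22 and T32) gave 1 untreated and 1 IL-4 library, so 4 groups of 3 libraries were compared. The study's text calls the WT animals littermates of the KI mice. Its methods describe pups of the KI colony as grown in separate cultures and a litter as pooled for WT preparations. They do not say which applied to these WT cultures, but a figure legend counts 3 mice per genotype and condition. Which cultures shared a litter is not given in the labels, so litter was not part of any fit.

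The best-known relatives of these genes belong to other cells. Ms4a1 is CD20 of B cells and Ms4a2 is the beta chain of the high-affinity IgE receptor of mast cells. The macrophage members are less well understood. MS4A4A is a surface protein of alternatively activated human macrophages that associates with dectin-1 (Clec7a), and genetic variation at the human MS4A locus is linked to Alzheimer's disease risk and to soluble TREM2 in cerebrospinal fluid. In the mouse brain Ms4a7 is best known as a marker of border-associated macrophages, Ms4a4b is best known from T cells, and Ms4a6b, Ms4a6c and Ms4a6d form a subgroup of closely similar genes expressed by myeloid cells.

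The levels are TPM (the share of a library's transcripts, scaled to a fixed total), which correct for transcript length and so allow genes to be compared within a library. No read counts were used here. The labels give a nominal number of reads, but TPM do not keep the depth of each library, so no counting interval can be given. The libraries carried microglial transcripts: 16 of 18 microglial markers exceeded 1 TPM in all 12 libraries. Their summed level was 25968 to 27964 TPM in untreated WT and 12127 to 22686 TPM in untreated KI libraries. All 10 astrocyte markers exceeded 1 TPM in at least 1 library, and their sum was 4803 and 3674 TPM in the pair from KI culture T15 against 167 to 693 TPM in the other libraries. Trem2 itself fell in KI libraries by 1.43 on the log2 scale (SE 0.19, limma adjusted p = 0.00763, 0.126 without an expression filter). With the culture as a block, which links its 2 libraries, the limma adjusted p was 0.0116. No KI library reached any WT library of the same treatment. Since these are bulk samples, fewer cells of a type and less RNA per cell cannot be told apart.

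All 8 genes lie in 1 cluster on mouse chromosome 19 (GRCm38), from 11321039 to 11604849, a span of 283.8 kb. In order along the chromosome they are Ms4a7 (minus strand, 11321039 to 11336146), Ms4a4a (plus, 11375523 to 11392790), Ms4a4c (plus, 11404770 to 11427246), Ms4a4b (plus, 11443553 to 11467055), Ms4a6c (plus, 11469366 to 11482192), Ms4a6b (plus, 11516512 to 11531256), Ms4a4d (plus, 11536801 to 11558467) and Ms4a6d (minus, 11586604 to 11604849). Ms4a7 and Ms4a6d, the outermost genes and the only members on the minus strand, had the highest levels. Neighbours differed widely: Ms4a4b averaged 0.513 TPM over the 12 libraries and Ms4a6c, the next gene, 54.0 TPM.

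**Figure D1:**
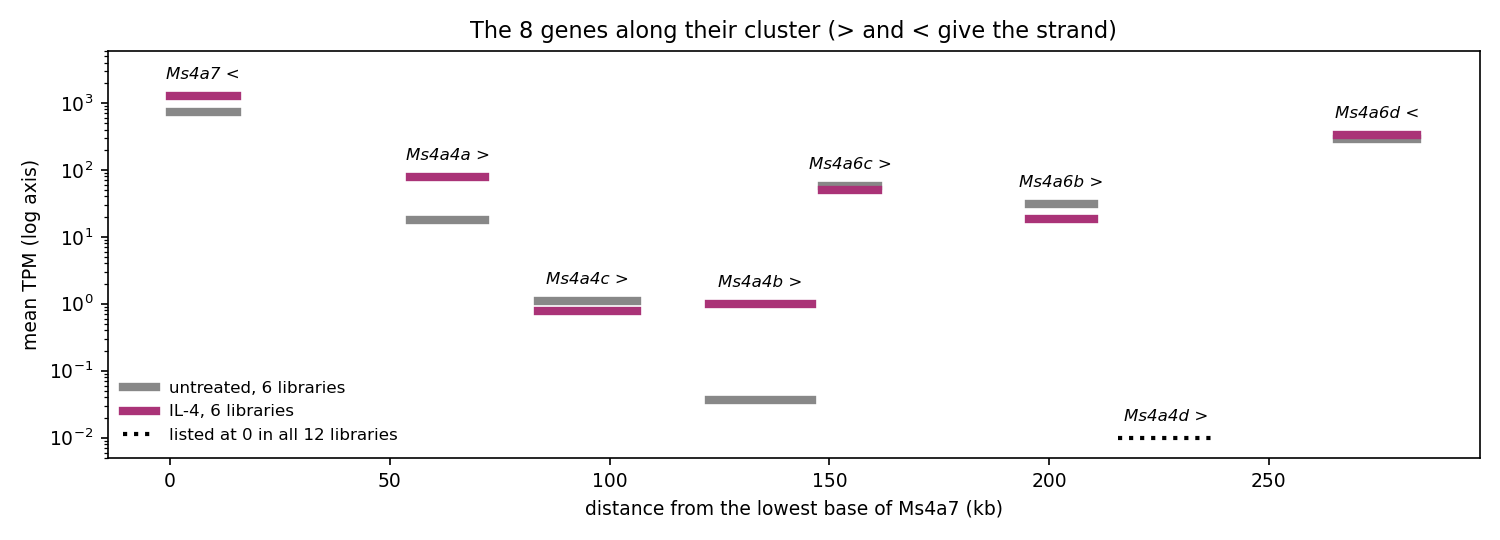
Mean TPM of each gene (log axis) against its distance in kb from the lowest base of Ms4a7; each bar spans the gene, in grey over the 6 untreated libraries and in purple over the 6 IL-4 libraries. Ms4a7 and Ms4a6d at the ends stand highest, Ms4a4a shows the widest gap between the bars among the genes above 10 TPM, and Ms4a4d, listed at 0, is drawn as a dotted line at an arbitrary height.

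Levels ran over orders of magnitude, and 5 of the 8 members passed the filter for expressed genes (mean log2(TPM + 1) above 1.5). Ms4a7 was the most abundant in every library, at 481 to 1773 TPM, and ranked between 53 and 222 among all genes of a library. Ms4a6d followed at 237 to 379 TPM, and its range did not meet that of Ms4a7. Ms4a6c lay at 30.9 to 71.6 TPM, Ms4a6b at 10.3 to 47.7 TPM and Ms4a4a at 7.29 to 163 TPM. These last 3 genes overlapped, and the order of Ms4a4a and Ms4a6b depended on IL-4. In untreated WT libraries every Ms4a6b value lay above every Ms4a4a value, while after IL-4 every Ms4a4a value lay above every Ms4a6b value in both genotypes. In untreated KI libraries the 2 genes overlapped.

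The other 3 members were scarce. Ms4a4c was 0.125, 0 and 1.33 TPM in WT without IL-4 (T13, T33, T43) and 0.536, 0 and 0.942 TPM in their IL-4 libraries. Its KI values were 0, 0 and 5.16 TPM untreated and 0.218, 0.490 and 2.47 TPM with IL-4 for T15, T22 and T32, so its highest levels came from culture T32. Ms4a4b was at most 0.190 TPM in the 6 untreated libraries. With IL-4 it was 0.0639, 0.431 and 1.23 TPM in WT and 2.19, 2.00 and 0.0200 TPM in KI, higher than the untreated library of the same culture in 5 of 6. In the fit without an expression filter the IL-4 difference of Ms4a4b was 0.79 on the log2(TPM + 1) scale (SE 0.30, limma adjusted p = 0.867) and that of Ms4a4c was 0.04 (SE 0.53, adjusted p = 1). Ms4a4d was listed at 0 in all 12 libraries.

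Of the 11 other Ms4a genes in the table, only Ms4a14 exceeded 1 TPM in any library. It was 2.90, 2.08 and 4.15 TPM in untreated WT libraries, 6.22, 4.37 and 9.79 TPM after IL-4, 6.10, 0.0987 and 3.56 TPM in untreated KI libraries and 8.29, 6.55 and 5.32 TPM after IL-4. It was higher with IL-4 in 6 of 6 cultures, but the difference of 1.07 (SE 0.44) did not pass the test (limma adjusted p = 0.788). The remaining 10 stayed at or below 0.712 TPM. Ms4a1 reached at most 0.0544 TPM, and the summed T-cell markers, of which 0 of 8 exceeded 1 TPM in all libraries, reached at most 2.85 TPM.

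How far the members can be told apart in sequencing was examined with the GENCODE transcripts of this build. In Ms4a4a, 0% of the 31-base words were found in a transcript of another gene, and in Ms4a7 the share was 1.42%. The share was 7.90% for Ms4a6b, 8.11% for Ms4a6d, 5.46% for Ms4a4b and 17.1% for Ms4a4c. In Ms4a6c it was 58.1%, because 51.0% of its words lie, on the opposite strand, in BE692007, a non-coding gene that overlaps it. The library kit does not mark strand, so reads from the 2 genes cannot be told apart in the overlap and the values of Ms4a6c are uncertain to that extent. BE692007 was listed at 0.532 to 10.8 TPM. Ms4a6b and Ms4a6c, whose longest coding transcripts are 89.9% identical over 1538 aligned bases, share 281 such words, so part of their reads rests on how the quantification divided them.

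Ms4a7 rose with IL-4. In WT, T13 went from 826 to 1088 TPM, T33 from 748 to 1311 TPM and T43 from 1034 to 1446 TPM. In the KI cultures T15, T22 and T32 it was 605, 481 and 655 TPM untreated and 953, 1080 and 1773 TPM with IL-4. It was thus higher with IL-4 in 6 of 6 cultures, by 1.32-fold to 2.71-fold, and the treated and untreated libraries did not overlap in either genotype. Group means were 869 ± 148 and 1281 ± 181 TPM in WT, and 580 ± 89.7 and 1269 ± 442 TPM in KI (SD, n = 3 each). Averaged over genotypes, the difference was 0.82 on the log2(TPM + 1) scale (SE 0.16, 95% interval 0.48 to 1.16). The limma F-test, which takes this average together with the interaction, gave an adjusted p of 0.0437, and a limma test of the average alone gave 0.0161. The F-test's call lay close to the threshold of 0.05 and depended on the setting. With the astrocyte marker score as covariate the adjusted p was 0.0124. Leaving out each of the cultures T13, T33, T43, T22 and T32 ended it (adjusted p 0.126, 0.205, 0.173, 0.173 and 0.102), and without T15 the adjusted p was 0.0215. Both other scalings also ended it, at adjusted p = 0.207 with quantile normalization and 0.196 with median-ratio scaling. In the fit that compares each treated library with its own culture (the culture as a replicate block) the same difference had an SE of 0.10 and an adjusted p of 0.00126, with an adjusted p between 5.7e-04 and 0.0093 when each culture was left out. Joined with no expression filter, the blocked fit did not call it (adjusted p = 0.326).

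Ms4a4a had the largest IL-4 difference among the tested members. It was 9.73, 16.5 and 13.6 TPM in untreated WT cultures and 40.0, 85.1 and 78.7 TPM with IL-4, with no overlap. In KI cultures T15, T22 and T32 it was 7.29, 14.3 and 46.9 TPM untreated and 27.7, 73.8 and 163 TPM with IL-4, so that untreated T32 exceeded treated T15. Within cultures the increase was 3.46-fold to 5.78-fold and occurred in 6 of 6. The difference was 2.09 on the log2(TPM + 1) scale (SE 0.45, 95% interval 1.13 to 3.05). Without the block, the limma F-test of this average together with the interaction was not passed (adjusted p = 0.112), whereas the limma test of the average alone was (adjusted p = 0.0339). The F-test was passed with the culture as a block (SE 0.17, 95% interval 1.72 to 2.46, adjusted p = 6.8e-05) and, without the block, when T15 or T32 was left out (0.0149 and 0.0298) and with the astrocyte marker score as covariate (0.00631). The untreated KI libraries alone spread over 7.29 to 46.9 TPM, a spread between cultures that the blocked fit removes. With the block, the adjusted p was 1.4e-04 to 0.00159 when each culture was left out, and 0.0665, no longer a call, without an expression filter.

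The 3 genes of the Ms4a6 subgroup gave no call. Ms4a6b was 47.7, 18.8 and 28.8 TPM in untreated WT cultures and 18.8, 10.3 and 16.8 TPM with IL-4. Its KI values were 33.1, 23.0 and 30.8 TPM untreated and 24.5, 20.2 and 20.1 TPM with IL-4. The treated library was lower in 6 of 6 cultures, at 0.394 to 0.880 of the untreated level. Treated and untreated groups nevertheless overlapped in both genotypes, in WT through the untreated T33 value and in KI through the untreated T22 value. The fitted difference was -0.67 (SE 0.24, 95% interval -1.19 to -0.15, limma adjusted p = 0.592, with the block 0.209). Ms4a6d was 237, 242 and 317 TPM in untreated WT and 293, 309 and 378 TPM with IL-4, and 314, 261 and 344 TPM in untreated KI and 325, 272 and 379 TPM with IL-4. It was higher with IL-4 in 6 of 6 cultures, but only by 1.03-fold to 1.28-fold, and its difference of 0.19 (SE 0.13) had an adjusted p of 0.946 and, with the block, 0.468. Ms4a6c was 71.4, 59.3 and 71.6 TPM in untreated WT and 62.0, 36.0 and 64.6 TPM with IL-4. In KI it was 52.5, 40.7 and 49.9 TPM untreated and 44.4, 30.9 and 64.8 TPM with IL-4. It was lower with IL-4 in 5 of 6 cultures, the exception being T32, and its difference of -0.22 (SE 0.20) had an adjusted p of 0.990.

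**Figure D2:**
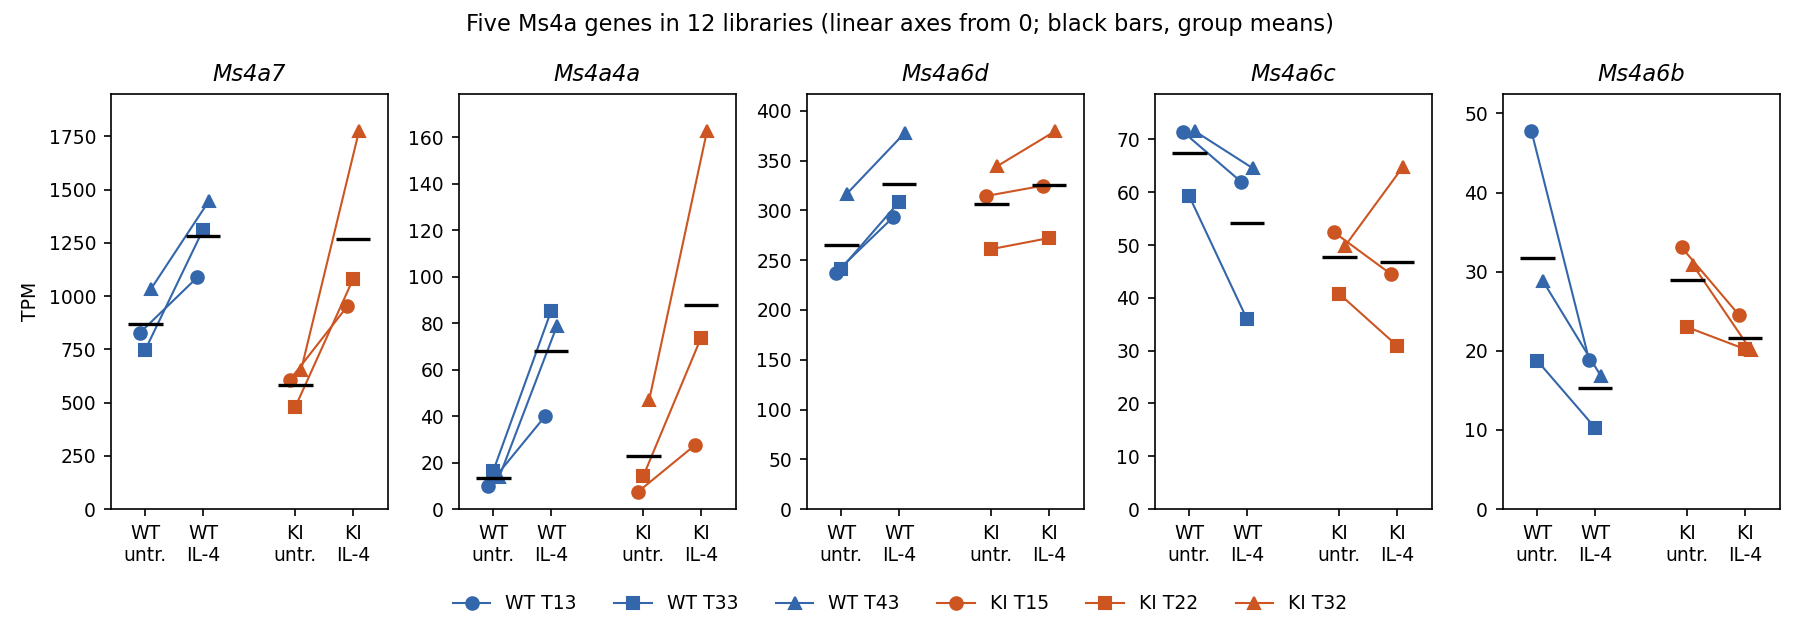
TPM of the 5 expressed members in all 12 libraries (linear axes from 0); lines join the untreated and IL-4 library of a culture, blue for WT and orange for KI, and black bars are means of 3 libraries. With IL-4, Ms4a7 and Ms4a4a are higher and Ms4a6b is lower in every culture, and culture T32 holds the highest Ms4a7 and Ms4a4a values, 1773 and 163 TPM.

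Read against all genes, 1 of the 5 tested members was called for IL-4 without the block, where 0.893% of the 11204 genes tested were called (84 higher and 16 lower). With the block it was 2 of 5, against 2.14% of all genes. Without any test, 3 of the 5 were higher with IL-4 in all 6 cultures, as were 5.73% of all genes, and 1 of the 5 was lower in all 6, as were 2.51% of all genes. The median IL-4 difference of the 5 members was 0.19 on the log2(TPM + 1) scale and that of all genes tested 0.04.

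**Figure D3:**
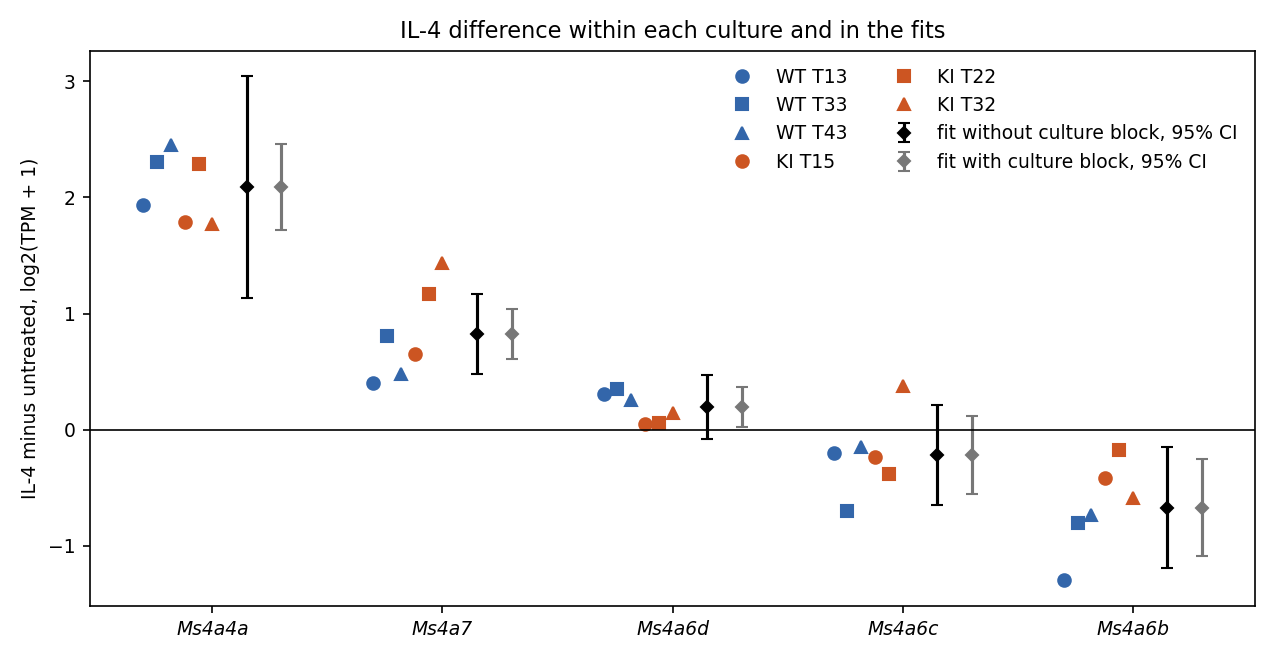
IL-4 minus untreated difference of log2(TPM + 1) for each of the 6 cultures (coloured symbols) and for the fits averaged over genotypes (diamonds with 95% confidence intervals, black without and grey with the culture as a block). The 6 Ms4a4a symbols lie between 1.77 and 2.45, and the block narrows the interval from 1.13 to 3.05 down to 1.72 to 2.46 around the same value.

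The promoters of Ms4a7, Ms4a4a and Ms4a6b are shown because these genes had the largest IL-4 differences of the 5 members past the expression filter, in opposite directions. RefSeq start sites on GRCm38.p6 were found for 7 of the members, with 8 promoters in all since Ms4a7 has 2 starts. Ms4a6d had no entry. Each promoter runs from 250 bases before to 50 bases after the start, 5′ to 3′ on the strand of the gene, at chr19:11336097-11336396 (minus strand) for the outer start of Ms4a7, chr19:11375238-11375537 (plus) for Ms4a4a and chr19:11518309-11518608 (plus) for Ms4a6b, whose RefSeq start lies downstream of the first base of the GENCODE gene. Capitals mark matches to the letters searched.
Ms4a7: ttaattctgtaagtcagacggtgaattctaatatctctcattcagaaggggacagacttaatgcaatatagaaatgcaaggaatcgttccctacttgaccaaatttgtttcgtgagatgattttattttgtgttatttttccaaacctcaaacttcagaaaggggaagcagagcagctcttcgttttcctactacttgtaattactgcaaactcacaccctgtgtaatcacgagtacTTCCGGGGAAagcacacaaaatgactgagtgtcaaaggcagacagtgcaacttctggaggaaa
Ms4a4a: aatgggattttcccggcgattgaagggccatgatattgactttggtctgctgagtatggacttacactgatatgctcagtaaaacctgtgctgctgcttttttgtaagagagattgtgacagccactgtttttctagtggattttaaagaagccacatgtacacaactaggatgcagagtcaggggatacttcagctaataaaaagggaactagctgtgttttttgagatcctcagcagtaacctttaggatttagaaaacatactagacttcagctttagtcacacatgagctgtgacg
Ms4a6b: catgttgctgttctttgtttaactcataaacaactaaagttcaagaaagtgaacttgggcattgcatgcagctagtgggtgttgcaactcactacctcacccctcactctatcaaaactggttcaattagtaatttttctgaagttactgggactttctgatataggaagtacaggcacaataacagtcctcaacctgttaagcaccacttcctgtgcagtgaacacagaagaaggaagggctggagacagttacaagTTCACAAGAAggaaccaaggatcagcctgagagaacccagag

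Motifs were searched on both strands. The STAT6 type, TTCNNNNGAA, is the spacing preferred by STAT6, the transcription factor activated by the IL-4 receptor. It was found in 2 of the 8 member promoters, as TTCCGGGGAA starting 13 bases before the outer Ms4a7 start and as TTCACAAGAA starting 8 bases after the Ms4a6b start, and 6.95% of all 32851 RefSeq promoters of this length hold it. It was thus present at a gene that rose and at one whose values were lower with IL-4, and not in the window of Ms4a4a, which holds no match to any motif searched. The AP-1 type, TGANTCA, was in the promoters of Ms4a4b and of the inner Ms4a7 start, 2 of 8, against 7.81% of all promoters. The STAT type TTCNNNGAA, the PU.1 type GAGGAAG and the interferon type GAAANNGAAA were in 0 of the 8, against 8.30%, 13.6% and 3.44% of all promoters. No matches overlapped.

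Between the genotypes, 0 of the 5 tested members were called, where 1.65% of all genes were (145 higher and 40 lower in KI). This fit takes the 2 libraries of a culture as independent, although genotype varies only between cultures, 3 per genotype. Its genotype SEs and intervals, and the marker calls below, therefore rest on fewer independent units than libraries. With the culture as a block, 0 members and 0.687% of all genes were called for genotype. The limma difference of KI minus WT, averaged over treatments, was -0.32 for Ms4a7 (SE 0.16, 95% interval -0.66 to 0.02, adjusted p = 0.349, unadjusted p = 0.0641). With each culture left out in turn, its adjusted p from limma was 0.145 to 0.809, and the difference was -0.50 without T32 but -0.21 without T22 or without T43. For Ms4a6c it was -0.36 (SE 0.20, 95% interval -0.79 to 0.07, adjusted p = 0.553), and it moved to -0.18 without T22 and to -0.54 without T33. Ms4a6d differed by 0.10 (SE 0.13) and Ms4a6b by 0.23 (SE 0.24), and both turned below 0 in other settings, to -0.13 for Ms4a6d with the microglial marker score as covariate (-0.02 with median-ratio scaling) and to -0.09 for Ms4a6b with the astrocyte marker score as covariate (-0.05 without T33). Ms4a4a differed by 0.24 (SE 0.45), which became -0.41 without culture T32, -0.02 without T13, 0.85 without T15 and 1.00 with the astrocyte marker score as covariate. Markers of mural cells, which surround blood vessels, differed with genotype as well: their summed level was 134 to 311 TPM in WT without and 220 to 382 TPM with IL-4, against 1020 to 1296 TPM in KI without and 679 to 1180 TPM with IL-4. Of these 5 markers 2 exceeded 1 TPM in all libraries and 1 was at 0 throughout, and 2 of the 2 tested were called higher in KI. Oligodendrocyte-lineage markers summed to 69.5 to 137 TPM in WT and 146 to 547 TPM in KI cultures before IL-4, with 1 of 7 tested genes called higher in KI. Fibroblast markers summed to 8.03 to 16.5 TPM and 28.8 to 80.3 TPM in the same order, with 0 of 3 called. After IL-4 the genotypes overlapped in both the oligodendrocyte-lineage and the fibroblast list. The oligodendrocyte-lineage sums were then 81.3 to 151 TPM in WT and 143 to 377 TPM in KI. The fibroblast sums were 14.97 to 232 TPM in WT and 15.07 to 66.5 TPM in KI, with the highest value in WT culture T43. Of the astrocyte markers 9 of 9 tested genes were higher in KI on average, with a median difference of 1.62 on the log2(TPM + 1) scale, and of the neuron markers 3 of 3, with a median of 1.41, although limma called 0 in either list. Apart from the fits with the astrocyte score as covariate, the part of these lists in the genotype values was not tested.

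Before treatment every KI value of Ms4a7 (481 to 655 TPM) lay below every WT value (748 to 1034 TPM), a ratio of means of 0.668. Ms4a6c showed the same order, with 40.7 to 52.5 TPM in KI and 59.3 to 71.6 TPM in WT, a ratio of 0.708. Such an order, all untreated KI below all untreated WT, held for 2 of the 5 members and 4.55% of all genes. After IL-4 both genes overlapped between the genotypes, and the Ms4a7 means were 1281 TPM in WT and 1269 TPM in KI. After IL-4 every KI value of Ms4a6b (20.1 to 24.5 TPM) lay above every WT value (10.3 to 18.8 TPM), as was so for 1 of the 5 members and 12.7% of all genes.

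The summed level of the 18 microglial markers also differed between the groups. It was lower in each untreated KI than in each untreated WT library, and was higher with IL-4 in 6 of 6 cultures, by 1.18-fold to 1.73-fold, although 1 of its 17 tested genes was called higher and 1 lower. This sum weighs abundant genes most. The mean log2(TPM + 1) of the same markers was lower with IL-4 in T33 (8.21 untreated and 8.10 treated), the same to 2 decimals in T43 (8.29) and higher in the other cultures, so the values per 1000 TPM that follow rest on the choice of the sum. Per 1000 TPM of these markers, Ms4a7 was 29.5, 28.7 and 39.8 TPM in untreated WT and 49.9, 21.2 and 35.4 TPM in untreated KI, so that on this relative scale the genotypes overlapped. With IL-4 it was 27.1, 42.8 and 43.2 in WT and 45.4, 39.6 and 64.8 in KI, higher than untreated in 4 of 6 cultures and lower in T13 and T15. Ms4a4a on the same scale was higher with IL-4 in 6 of 6 cultures, by 2.19-fold to 4.49-fold, and Ms4a6b and Ms4a6c were lower in 6 of 6. Ms4a6d, higher with IL-4 in TPM in 6 of 6 cultures, was lower on this scale in 5 of 6, at 0.598 to 1.09 of the untreated level. With the microglial marker score as a covariate, the IL-4 difference of Ms4a7 was 0.89 (SE 0.17, limma adjusted p = 0.053). In the fit with this covariate the KI minus WT difference of Ms4a7 was -0.56 (limma adjusted p = 0.927), larger in size than in the fit without it. Beyond the fits with this score, the part of the microglial markers in these results was not tested.

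**Figure D4:**
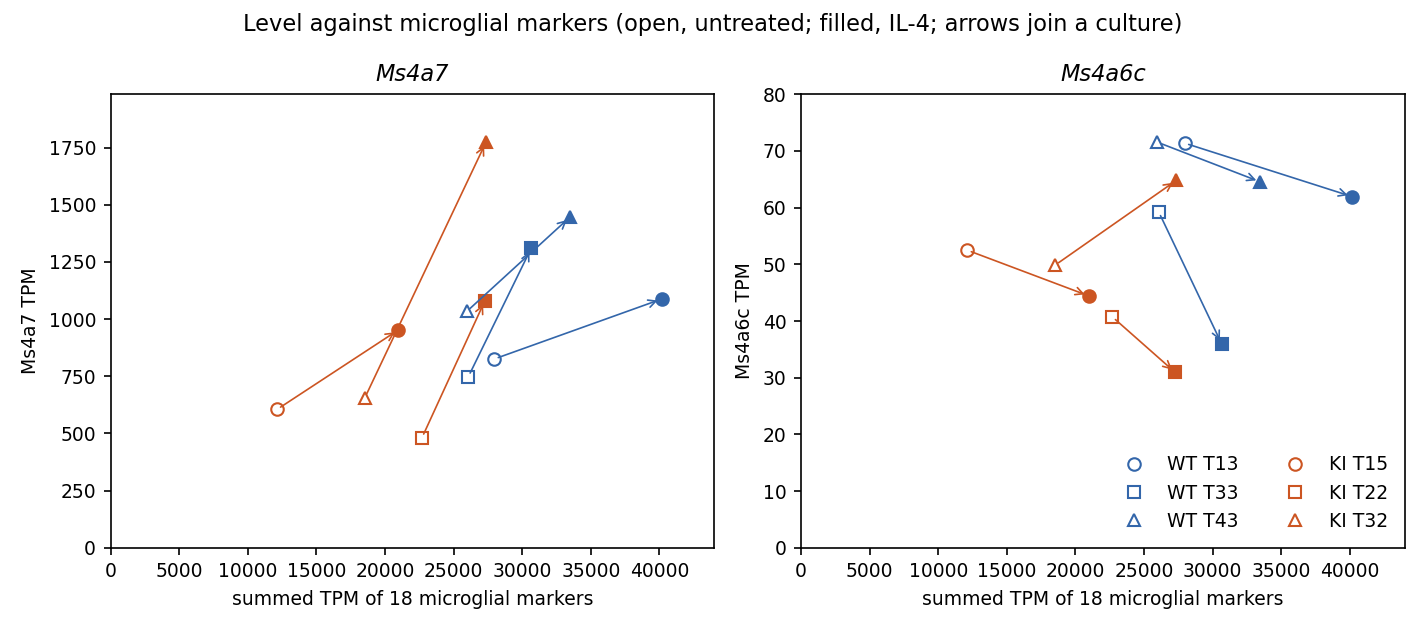
Ms4a7 (left) and Ms4a6c (right) TPM against the summed TPM of 18 microglial markers in each library; open symbols are untreated, filled symbols IL-4, arrows join a culture, blue is WT and orange KI. All 3 untreated KI libraries lie to the left of and below the untreated WT libraries, and every arrow points to the right.

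The IL-4 response was not shown to differ between genotypes for any member. The response of Ms4a7 averaged 0.56 in WT and 1.08 in KI cultures on the log2(TPM + 1) scale, a difference of 0.52 (SE 0.32, 95% interval -0.16 to 1.20, limma adjusted p = 0.9997). Ms4a6b responded by -0.95 in WT and -0.40 in KI, a difference of 0.55 (SE 0.48, 95% interval -0.49 to 1.59). For Ms4a4a the responses were 2.23 and 1.95, a difference of -0.28 (SE 0.89, 95% interval -2.19 to 1.64). Ms4a6d responded by 0.30 in WT and 0.08 in KI, and Ms4a6c by -0.35 and -0.08. These SEs come from the fit without the block. There limma called 0 of the 5 members and 0% of all 11204 genes for this interaction. In that fit 357 genes had an unadjusted p under 0.05, none of them a member. With the block, limma also called 0 members and 0% of all genes, of which 551 had an unadjusted p under 0.05. The adjusted p of Ms4a7 was 0.637 to 0.9995 over the fits with the block.

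The make-up of the family differed between the groups as a description. The 8 genes summed to 1084 to 1466 TPM in untreated WT, 1502 to 1986 TPM in WT with IL-4, 820 to 1133 TPM in untreated KI and 1376 to 2403 TPM in KI with IL-4. Ms4a7 made up 69.0 to 70.5% of this sum in untreated WT and 57.8 to 59.8% in untreated KI libraries, and 72.4 to 74.9% and 69.2 to 73.8% after IL-4. Ms4a6d made up 19.9 to 22.3% in untreated WT and 30.4 to 31.8% in untreated KI libraries. The ratio of Ms4a6d to Ms4a7 within a library, which does not depend on the library scaling, was 0.288 to 0.323 in untreated WT and 0.520 to 0.543 in untreated KI, and after IL-4 0.235 to 0.270 and 0.214 to 0.341. This ratio was chosen after its values were seen, and no test is given for it. The share of Ms4a4a went from 0.817 to 1.52% in untreated WT to 2.67 to 4.86% with IL-4, and from 0.720 to 4.15% to 2.01 to 6.77% in KI.

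**Figure D5:**
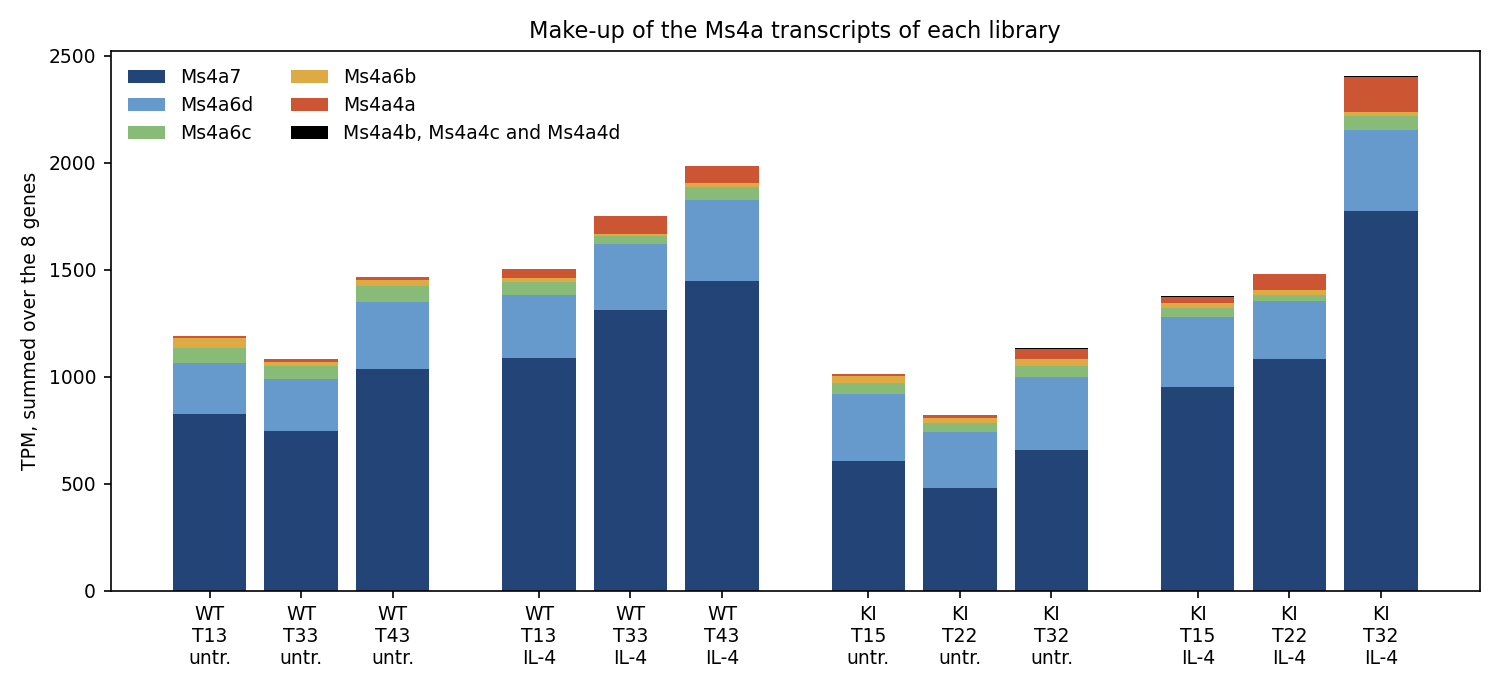
TPM of the 8 genes stacked for each library (linear axis from 0), grouped by genotype and treatment. Ms4a7, in dark blue, is the largest segment of every bar, the Ms4a6d segment spans 261 to 344 TPM in untreated KI and 237 to 317 TPM in untreated WT bars while the Ms4a7 segment is shorter in the former, and the bar of KI T32 with IL-4 is the tallest, at 2403 TPM.

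Genes around the family were taken from lists. Of 8 partners (Trem2 and its adaptor Tyrobp, Clec7a, Syk, Card9, Adam10, Adam17 and Fcer1g), 1 was called higher with IL-4 and 1 lower in KI. Clec7a, the beta-glucan receptor dectin-1, was 345, 354 and 338 TPM in untreated WT and 1857, 1004 and 1039 TPM with IL-4, and 141, 297 and 264 TPM in untreated KI and 653, 1292 and 1032 TPM with IL-4. It rose by 1.97 on the log2(TPM + 1) scale (SE 0.22, limma adjusted p = 9.0e-04). Adam10, a sheddase that cleaves TREM2, was higher with IL-4 in 6 of 6 cultures, with a difference of 0.47 (SE 0.19, adjusted p = 0.751). Of 7 tested alternative activation genes 6 were called higher with IL-4, among them Mrc1, the mannose receptor, by 3.11 on the log2(TPM + 1) scale (SE 0.39, limma adjusted p = 0.00265, 0.0626 without an expression filter). Of 11 interferon-stimulated genes 0 were called for IL-4 by limma without the block, and with the block 1 was called higher, Ifi204 (0.67, SE 0.13, limma adjusted p = 0.0349), named after its values were seen. Tmem176b, a related tetraspan gene outside the cluster, was lower with IL-4 in 6 of 6 cultures, at 0.605 to 0.884 of the untreated level, and its difference of -0.44 had an adjusted p of 0.650 without and 0.0161 with the block. Tmem176a, the other such gene read, was lower in 5 of 6 cultures, the exception being T32. Its difference of -0.26 had a limma adjusted p of 0.972 without and 0.324 with the block.

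Markers of border-associated macrophages were also read, since Ms4a7 is one. Of the 10 listed, 8 exceeded 1 TPM in some library and 2 did in all. Lyve1, listed at 0 in all 12 libraries, and Cd163, at most 0.0546 TPM, did not in any. Pf4 was at 37.2 to 349 TPM and Mrc1 at 0.779 to 63.2 TPM, the latter also an alternative activation gene. The 10 markers of this list summed to 238 to 242 TPM in untreated WT, 139 to 429 TPM in WT with IL-4, 107 to 196 TPM in untreated KI and 112 to 401 TPM in KI with IL-4, and 1 of its 6 tested genes was called higher with IL-4. The monocyte markers Ccr2 and Ly6c2 were at most 1.33 and 0.0565 TPM. Of the 8 markers of that list 4 exceeded 1 TPM in some library and 1 did in all. Their sum was 24.3 to 53.4 TPM in untreated WT, 78.2 to 94.3 TPM in WT with IL-4, 29.1 to 98.3 TPM in untreated KI and 44.5 to 94.1 TPM in KI with IL-4. Of the 2 tested, 1 was called higher with IL-4, Chil3 (limma adjusted p = 0.0392), which also stands among the alternative activation genes. The call of Chil3 ended with quantile normalization (adjusted p = 0.111), median-ratio scaling (0.0570) and no expression filter (0.347). The part of these cells in the Ms4a values was not tested.

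Among the members, log2(TPM + 1) over the 12 libraries went together most for Ms4a4a and Ms4a7 (Pearson r = 0.77) and least for Ms4a4a and Ms4a6b (r = -0.66). Libraries of a culture and of a treatment are shared by these points, so the coefficients are descriptions. The 3 genes most like Ms4a4a among 11203 others were Psap (r = 0.96), Haus8 (0.94) and Anxa3 (0.93). Psap encodes the lysosomal protein prosaposin. For Ms4a7 they were Evl (0.91), Plod1 (0.91) and Traf5 (0.89). For Ms4a6d they were Ssb (0.92), A430005L14Rik (0.90) and Ccdc88a (0.86), for Ms4a6b Ndfip2 (0.85), Fbxo10 (0.84) and Serp1 (0.83), and for Ms4a6c Xylt2 (0.81), Aebp2 (0.78) and Gm20528 (0.78).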

How the data were processed

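RNA from 12 libraries of primary microglia was reverse transcribed from poly(A) tails and sequenced in pairs. After adaptor removal (Trim Galore), the authors used Salmon with the GRCm38 annotation and deposited gene-level TPM values, which sum to 1000000 per library. Counts were not used here, so the likelihood-ratio test on counts in the study's methods was replaced by limma (version 3.58.1, R 4.3.3). Values were taken as log2(TPM + 1), which understates changes of scarce genes, and genes with a mean above 1.5 were kept (11204). IL-4 and genotype were each tested with their interaction by a moderated F-test, the interaction alone by a moderated test, with Benjamini-Hochberg adjustment over all genes and a threshold of 0.05. The fits were tested on simulated data. Libraries of 1 culture were paired by the culture number in the sample titles: their deviations from the group means correlated at 0.0792 to 0.378. All 8 members were described, with the 3 most like genes each. Members, lists and rules were chosen with earlier results of these data known. Promoters came from RefSeq (GRCm38.p6).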

Additional observations from a re-analysis of the deposited data

How the results depend on the processing

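The number of members called for IL-4, 1 without the block, was 0 with a pseudocount of 0.1, without an expression filter, with quantile normalization, with median-ratio scaling, without a variance trend and with the microglial marker score as covariate. It was 2 with the culture as a replicate block, with the astrocyte marker score as covariate and with a 1-coefficient test. Leaving out 1 culture gave 0 to 2. Ms4a7 had an adjusted p of 0.0503 with the pseudocount of 0.1, 0.350 without a filter and 0.228 without a variance trend. The cause was not tested. Over 16 alternatives its difference stayed at 0.65 to 0.93 and that of Ms4a4a at 2.00 to 2.20.

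Alternatives added after seeing the data joined the block with a second choice. With quantile normalization, median-ratio scaling or a pseudocount of 0.1 the count was 2, without a filter it was 0 (adjusted p of Ms4a4a 0.0665 and of Ms4a7 0.326), and with each culture left out it was 2 throughout. The block changed no other call of a member. It moved the calls over all genes from 100 to 240 for IL-4 and from 185 to 77 for genotype. Genotype and interaction called 0 members under every alternative run.

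Over all genes and with 1 choice changed at a time, the calls ranged from 46 (without WT culture T43) to 240 (with the block) for IL-4 and from 3 (without WT culture T33) to 575 (with the 1-coefficient test) for genotype. With the block joined to a second choice they ranged from 6 (no filter) to 250 (without KI culture T22) for IL-4 and from 1 (without WT culture T33) to 123 for genotype. For genotype there were 16 without T43, 49 without KI culture T15 and 4 with the microglial score. The share of genotype calls that were higher in KI was 78.4% in the deposited scaling, against 61.6% (quantile) and 67.7% (median ratio), and the median genotype difference of all genes was 0.13, -0.06 and 0.02 in the same order. The depth of each library is not kept in TPM, and 3 cultures per genotype limit what can be detected.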
